A study of Mus musculus with 90 samples.

Results

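Apolipoproteins are the protein coats of the lipid particles that travel in plasma and cerebrospinal fluid. The messenger RNAs of 10 of them, Apob, Apoa5, Apoc3, Apoc1, Apoa1, Apoa2, Apoe, Apoh, Apom and Apod, were followed here across a mouse body and across the estrous cycle. They were chosen by name and found by their Entrez gene number, and all 10 are among the 20414 genes measured. RNA-seq libraries were made from 15 tissues of healthy wild-type female C57BL/6 mice, which were 10 weeks old according to the sample labels, in estrus or in diestrus as staged from vaginal smears. The study's methods name the substrain C57BL/6J and give a lower age than the labels. Each tissue and phase had 3 libraries, which gave 6 per tissue and 90 in all, and by the study's account the 15 tissues of a phase were taken from the same 3 mice. The labels name no transgene and no treatment. Expression was deposited as FPKM, which divides the fragments of a gene by transcript length and library size and so allows genes to be compared with each other.

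Liver packs dietary and newly made fat into very low density lipoprotein (VLDL), and the small intestine packs absorbed fat into chylomicrons. Apob is the structural protein of both particles, Apoa1 and Apoa2 are the main proteins of high density lipoprotein (HDL), and the small exchangeable proteins encoded by Apoc1, Apoc3, Apoa5 and Apoe move between particles and control how lipases and receptors act on them. Apom and Apod belong to the lipocalins, small carriers of hydrophobic molecules, and Apoh is a plasma protein that binds phospholipids. Apoa1, Apoc3 and Apoa5 lie close together on chromosome 9, with Apoa4 among them, and Apoe and Apoc1 lie close together on chromosome 7, next to Apoc4 and Apoc2.

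Members that were almost confined to liver and members that were not could be set beside their promoters. RefSeq promoter sequences (build GRCm38.p6) were at hand for 8 of the 10 genes, and Apoc1 and Apoc3 had no entry. The 150 bases before the start site are printed for Apoa1, Apoa2, Apoa5, Apob and Apoh, because their windows held a forkhead motif, and for Apod, whose liver level was the lowest of its 15 tissues. Apoe and Apom, also high in liver, held no forkhead motif and are not printed. Capitals mark the forkhead motif in the forms TGTTTAC and TGTTTGC, and the TATA motif TATAAA, on either strand.
Apoa1 (chr9:46228480-46228629, plus strand): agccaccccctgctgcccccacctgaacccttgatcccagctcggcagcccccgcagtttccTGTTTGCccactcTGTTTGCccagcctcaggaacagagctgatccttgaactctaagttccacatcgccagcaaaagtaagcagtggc
Apoa2 (chr1:171224904-171225053, plus strand): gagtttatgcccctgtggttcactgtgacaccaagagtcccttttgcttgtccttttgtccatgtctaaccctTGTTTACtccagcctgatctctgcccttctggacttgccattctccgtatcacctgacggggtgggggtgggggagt
Apoa5 (chr9:46268458-46268607, plus strand): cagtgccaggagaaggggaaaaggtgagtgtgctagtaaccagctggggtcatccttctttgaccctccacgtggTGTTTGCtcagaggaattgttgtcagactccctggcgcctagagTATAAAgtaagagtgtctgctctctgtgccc
Apob (chr12:7977527-7977676, plus strand): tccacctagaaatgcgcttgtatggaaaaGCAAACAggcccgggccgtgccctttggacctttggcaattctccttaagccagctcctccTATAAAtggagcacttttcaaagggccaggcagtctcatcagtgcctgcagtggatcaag
Apoh (chr11:108395147-108395296, plus strand): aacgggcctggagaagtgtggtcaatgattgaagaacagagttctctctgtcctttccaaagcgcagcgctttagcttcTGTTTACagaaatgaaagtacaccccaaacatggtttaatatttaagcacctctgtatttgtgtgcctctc
Apod (chr16:31314809-31314958, minus strand): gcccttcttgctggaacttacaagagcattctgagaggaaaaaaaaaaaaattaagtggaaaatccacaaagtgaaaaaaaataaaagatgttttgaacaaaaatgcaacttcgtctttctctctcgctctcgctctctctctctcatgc

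At least 1 of the forkhead forms occurred in 5 of the 8 member promoters, against 4.14% of 27025 mouse promoters in the same window. TGTTTGC was in Apoa1 at 88 and 75 bases before the start, in Apoa5 at 75, and in Apob at 121 on the opposite strand, and 2.45% of all promoters held it. TGTTTAC was in Apoa2 at 77 bases and Apoh at 71 bases before the start, against 1.74% of all promoters. The windows of Apod, Apoe and Apom held neither form. TATAAA was in Apoa5 and Apob (8.08% of all promoters). Of the other motifs searched on both strands, AGGTCA (8.49%) and GTTAAT (3.76%) were in none of the 8 windows, and TTGCNNAA (5.48%) was in Apob. These matches describe letters in a window and do not show that a factor binds there.

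Liver had the highest level of 9 of the 10 genes, and the exception was Apod. Together the 10 transcripts made up 8.16% of all summed FPKM in liver, 1.33% in duodenum and between 0.0142% (Muscle) and 0.418% (Vein) in the other tissues. Mean liver levels (± SD, n = 6) were 13246 ± 1261 FPKM for Apoa2, 13091 ± 637 for Apoe, 7615 ± 1414 for Apoa1, 5707 ± 841 for Apoc1 and 3273 ± 368 for Apoc3. Apoh followed with 1564 ± 62.4 FPKM, then Apoa5 with 677 ± 115, Apom with 279 ± 30.4 and Apob with 246 ± 6.41. Apod was at 0.108 ± 0.0571 FPKM in liver. A level in a bulk library falls both when fewer cells of a type are present and when each cell holds less RNA, and these cannot be told apart here.

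**Figure D1:**
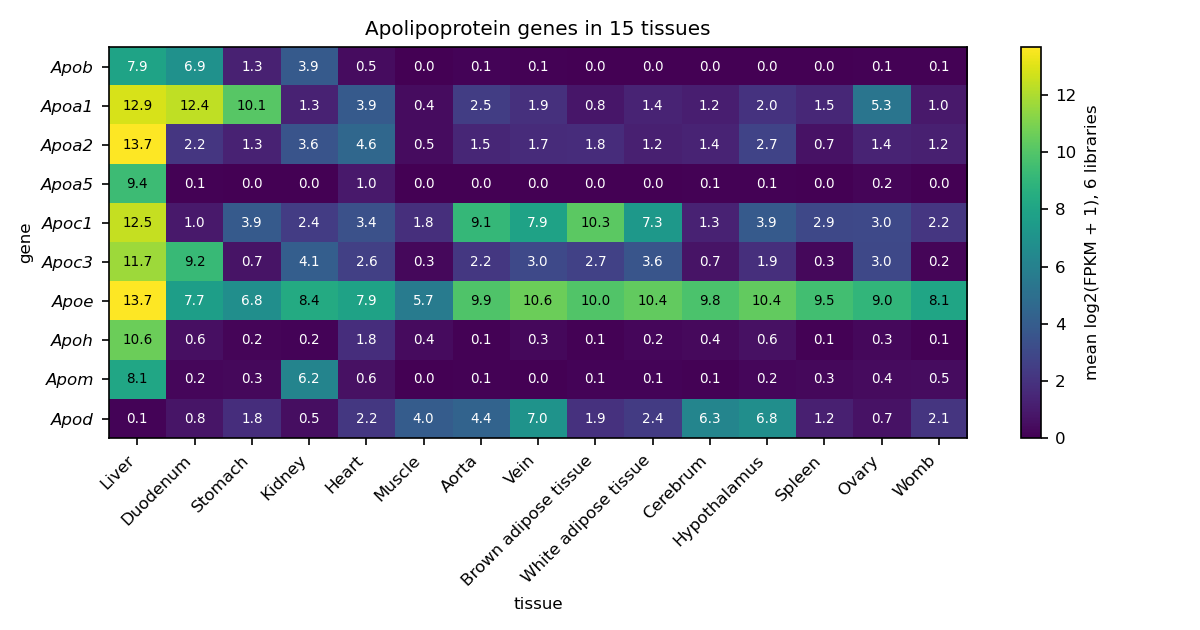
Mean log2(FPKM + 1) over 6 libraries for each of the 10 apolipoprotein genes (rows) in each of 15 tissues (columns). Liver is the brightest column for every gene except Apod, Apoe is above 1 FPKM in all tissues and lowest in Muscle, and Apod peaks in Vein, Hypothalamus and Cerebrum.

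The assembly proteins came first in the order of roles. Apob, the scaffold of VLDL and chylomicrons, ranged from 241 to 257 FPKM in liver and was above 1 FPKM on average in only 3 other tissues. In duodenum its 6 libraries ranged from 50.0 to 189 FPKM (median 125), in kidney from 5.18 to 20.2 and in stomach from 0.810 to 3.30. Each step of this order, liver to duodenum to kidney to stomach to heart, was separated without overlap, and each gave an adjusted p of 0.0126 in the exact permutation test of neighbouring tissues. That test compared 6 libraries with 6, was two-sided, was adjusted by Benjamini-Hochberg over all 140 neighbours of the 10 genes, and can give no raw p below 0.00216. Here and below, the neighbours and the direction between them came from the order of the same means. The test therefore describes separation and is no independent support for the order.

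Apoa5, which raises the clearance of triglyceride-rich particles, was the most liver-bound member. Its 6 liver libraries lay between 514 and 817 FPKM. The next tissue, heart, lay between 0.750 and 1.22 FPKM, and all 6 libraries of kidney, brown adipose tissue, Vein and Womb listed it at 0. Liver held 99.8% of the sum of its tissue means. Apoh, a plasma protein that binds anionic phospholipids, had the same shape at a higher level, with 1495 to 1621 FPKM in liver and 1.77 to 2.99 in heart.

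Apoa2, the smaller HDL protein, was also concentrated in liver, where its mean was 578 times that of heart, the next tissue. Heart held 17.4 to 32.7 FPKM and kidney 7.30 to 14.6. The pattern of Apoa1, the main HDL protein, was wider. Its liver libraries ranged from 5477 to 9394 FPKM, its duodenum libraries from 2450 to 11148, and its stomach libraries from 777 to 1704. The liver and duodenum ranges overlapped and limma called no difference between these tissues (log2 difference 0.51 ± 0.32 SE, 95% interval -0.19 to 1.204, adjusted p = 0.160). Duodenum and stomach did not overlap, nor did stomach and ovary (23.4 to 55.3 FPKM) or ovary and heart (11.5 to 17.2 FPKM), each with an adjusted p of 0.0126.

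Apoc3, which slows lipolysis and uptake of remnants, lies beside Apoa1 but did not keep its proportions. The ratio of mean Apoa1 to mean Apoc3 was 2.33 in liver, 8.52 in duodenum and 1414 in stomach, where Apoc3 lay between 0 and 2.64 FPKM. Kidney showed the opposite, with 8.68 to 23.8 FPKM of Apoc3 and 0.450 to 4.02 of Apoa1. White adipose tissue was similar, at 5.01 to 15.2 FPKM of Apoc3 and 0.340 to 4.12 of Apoa1. In duodenum Apoc3 ranged from 272 to 1472 FPKM, all below the liver range of 2781 to 3827.

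Apom, the sphingosine 1-phosphate carrier of HDL, averaged 1 FPKM or more in 2 organs. Liver held 231 to 313 FPKM and kidney 59.9 to 88.1, that is 26.0% of the liver mean, and every other tissue averaged under 1 FPKM. The kidney libraries carried proximal tubule markers at a sum of 31194 to 47075 FPKM, led by Kap and Slc34a1. The hepatocyte marker list summed to 186 to 299 FPKM there, with Alb at 0.0181% of its liver mean.

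Apoe, the ligand of the low density lipoprotein receptor family, was the only member above 1 FPKM in all 15 tissues. After liver its means were 1596 ± 170 FPKM in Vein, 1395 ± 392.2 in white adipose tissue, 1353 ± 65.1 in Hypothalamus, 1167 ± 596 in Aorta and 1022 ± 180 in brown adipose tissue (SD, n = 6). All genes together summed to 373808 to 406363 FPKM in the Hypothalamus libraries and 457528 to 497049 in Vein, so this order depends on the FPKM scale. Muscle was lowest, with 38.8 to 67.2 FPKM. The libraries of liver and Vein did not overlap (adjusted p = 0.0126), while the next 6 neighbours in the order, from Vein to Spleen, were not separated by the test. Spleen and ovary were (adjusted p = 0.0224), as were ovary and kidney and stomach and Muscle (adjusted p = 0.0126 each).

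Apoc1, an inhibitor of lipoprotein uptake and of lipid transfer, shares its chromosomal cluster with Apoe but had another distribution. Its liver libraries held 4703 to 7089 FPKM. Brown adipose tissue came next, with 1172 to 1758 FPKM in 5 libraries and 560.0 in estrus replicate 1, and did not overlap liver (adjusted p = 0.0126). Aorta held 638 to 985 FPKM in 5 libraries and 109 in estrus replicate 1, Vein 142 to 401 and white adipose tissue 114 to 212. The ratio of mean Apoc1 to mean Apoe was 1.27 in brown adipose tissue, 0.436 in liver, 0.558 in Aorta, 0.115 in white adipose tissue and 0.0102 in Hypothalamus.

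Apod stood apart from all other members. This lipocalin, a carrier of arachidonic acid and steroids known from glia and fibroblasts, had its highest mean FPKM in Vein (estrus libraries 82.5, 107 and 134 FPKM, diestrus libraries 124, 170 and 188). Hypothalamus held 74.95 to 144 FPKM and Cerebrum 63.5 to 105, and these 3 tissues overlapped. Aorta, at 7.76 to 37.7 FPKM, lay below all of them (adjusted p = 0.0126 against Cerebrum), and Muscle held 7.60 to 21.4. As with Apoe, the order of Vein and Hypothalamus depends on the FPKM scale.

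**Figure D2:**
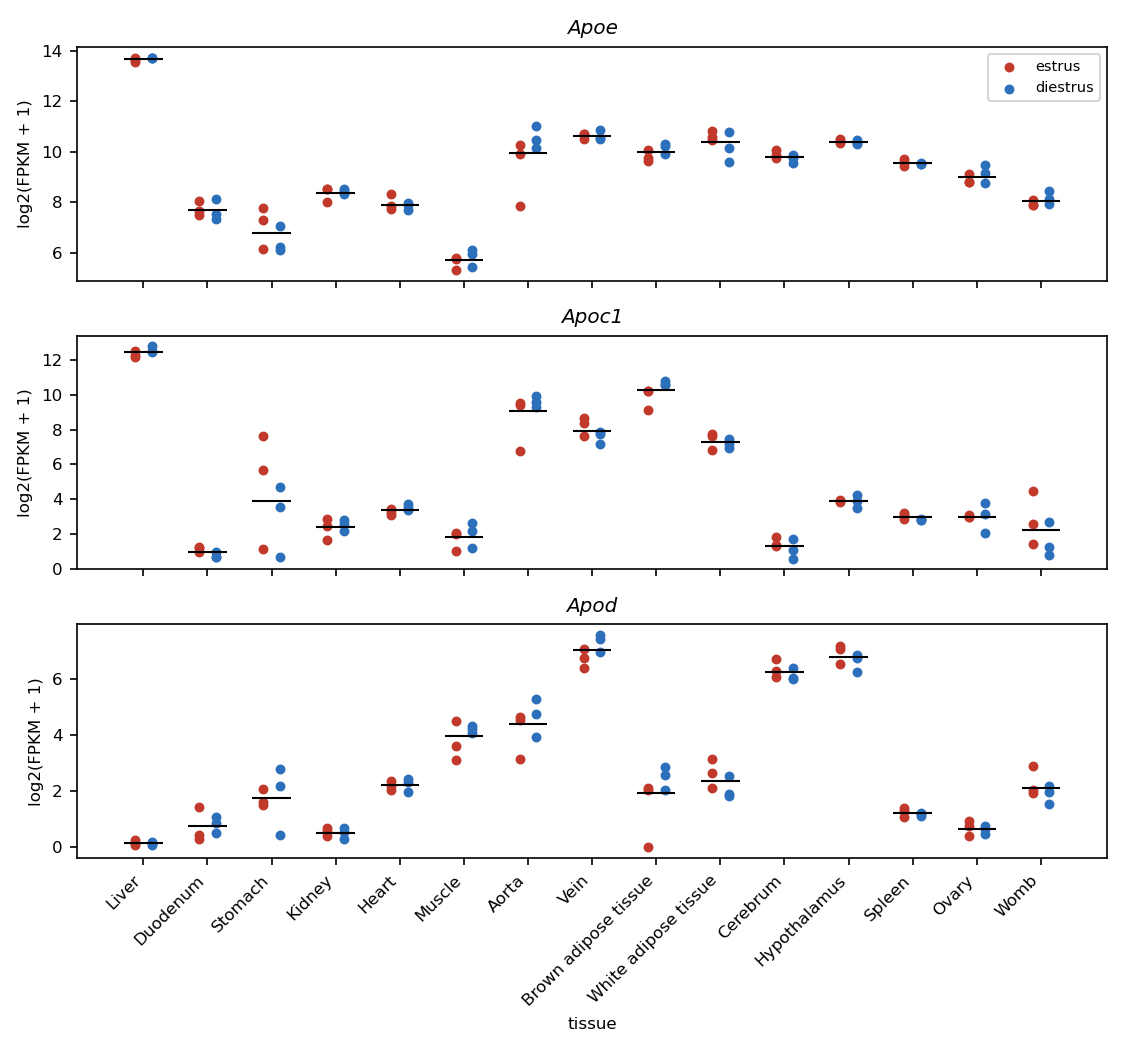
log2(FPKM + 1) of Apoe, Apoc1 and Apod in each of the 90 libraries by tissue, estrus in red and diestrus in blue, with the mean of 6 libraries as a bar. Apoc1 is high in liver, brown adipose tissue and Aorta, and its stomach libraries spread from 0.580 to 200.4 FPKM, while Apod is high in Vein and brain and near 0 in liver.

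Over all 10 genes, 29 of the 140 neighbouring tissues in these orders differed, and 24 had ranges that did not overlap, so most adjacent ranks were not separated. The genes whose tissue means followed each member most closely were found among 15216 other genes, as Pearson r of mean log2(FPKM + 1) over the same 15 tissues, in which all genes share libraries. Apoa5 was closest to Cyp2a12 (r = 1.00), Cyp2c37 and Akr1c6, and 73 genes had an r of at least 0.99 with it. Apoh was closest to Ces1c, Plg and Cyp2c50, Apom to Uroc1, C8a and Cyp2d9, Apoa2 to Fgb, Fgg and Kng1, and Apob to Ugt1a1, Smlr1 and Pbld2, with r of at least 0.977 in each case. Apoa5 averaged 1 FPKM or more in liver alone and Apoh in liver and heart, so their r rests mainly on the liver value. The nearest genes of Apoa1 (Pla2g12b, Ces2a and Ugt2b35), Apoc3 (Slc17a4, Cyp2c68 and Adh4) and Apoc1 (Orm1, Gys2 and Hp) reached 0.955, 0.938 and 0.935. Apod was closest to Sox10 (r = 0.956), the transcription factor of glia and Schwann cells, then to Lgi4 and Kcna1. Apoe had the least similar neighbours, Trf (r = 0.889), Pid1 and Tfr2.

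Low levels in heart and in 1 ovary library had a common proportion. In heart, 8 members lay at nearly the same share of their liver mean. The shares were 0.140% for Apoa5, 0.158% for Apob and for Apoc3, 0.159% for Apoh, 0.168% for Apoc1, 0.173% for Apoa2, 0.179% for Apoa1 and 0.202% for Apom. Of the 22 hepatocyte markers, 20 were between 0.1% and 0.25% of their liver means in heart, with a median of 0.160% and albumin (Alb, 74.6 FPKM) at 0.154%. The median marker share ranged from 0.136% to 0.204% over the 6 heart libraries, so each of them carried it. Apoe, at 1.84% of its liver mean, and Apod, at 3.68 ± 0.608 FPKM (SD, n = 6), stood outside this band. Whether the heart values came from liver RNA was not tested.

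In ovary, diestrus replicate 3 was unlike the other 5 libraries for the same genes. Apoa2 was at 15.7 FPKM there and at 1.37, 0.950, 0.510, 0.240 and 1.18 in the others. Apoh was at 1.83 FPKM against at most 0.0700, Apoa5 at 0.580 against at most 0.160, and Apob at 0.290 against at most 0.0600. Albumin was at 50.3 FPKM against at most 0.0900, and 20 of the 22 hepatocyte markers were highest in this library, at a median of 0.129% of liver. Apoa2, Apob and Apoh were at 0.119%, 0.118% and 0.117% of their liver means in it, and Apoa5 at 0.0857%. Without this library the mean ovary level of Apoa2 was 0.850 ± 0.468 FPKM (SD, n = 5) instead of 3.33 ± 6.09 (n = 6).

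Apoa1 did not stand out in that library. It was at 38.1 FPKM there and at 23.4 to 55.3 in the other 5, whose mean was 40.9 ± 13.3 (SD, n = 5), and Apoa1 in ovary was at 0.530% of its liver mean. The spread of the other 5 could hide a gain of the share of liver given above for Apoa2. Apoc3 (9.12 FPKM against 4.43 to 8.73), Apoc1 (12.6 against 3.08 to 7.79) and Apoe (703 against 436 to 567) were also highest in diestrus replicate 3, by smaller factors. Apoe was at 5.37% of its liver mean there. The macrophage markers were highest in the same library too, at a sum of 266 FPKM against 174 to 207 in the other 5. The part of either marker list in these values was not tested. The median hepatocyte marker was at or below 0.00627% of liver in those 5 libraries.

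**Figure D3:**
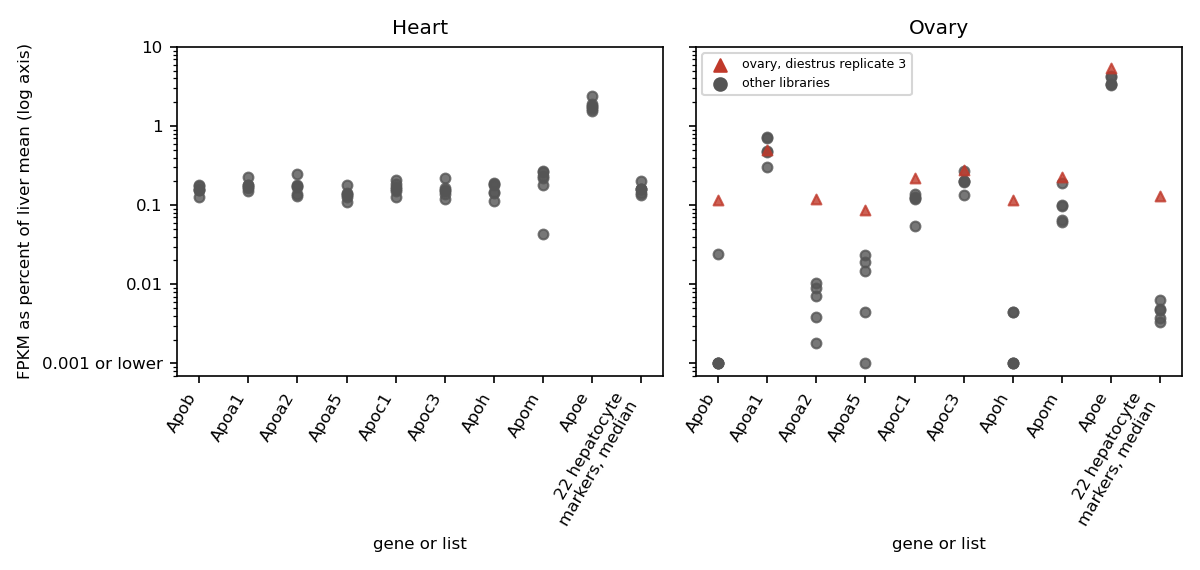
FPKM in each heart and ovary library as a percent of the liver mean (log axis), for 9 members and for the median of 22 hepatocyte markers, with values at or below 0.001% drawn at the lowest tick. The heart libraries form a band near 0.160% for every gene except Apoe, with 1 Apom library at 0.0430%, and ovary diestrus replicate 3 (triangle) lies far above the other ovary libraries for Apob, Apoa2, Apoa5 and Apoh but not for Apoa1.

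The 8 fixed pairs of related tissues tested these differences in limma, with phase as a covariate and 12 libraries per pair. Calls needed an adjusted p of at most 0.05 and a difference of 1 or more in log2(FPKM + 1). Where a member reached the mean of 1 FPKM only through the tissue in which it was high, the filter itself favoured a difference. A call of such a member is no support for a count. Beyond the pairs with liver and heart, the members that passed in this way were Apoc1, Apoc3 and Apod between duodenum and stomach, where Apod was not called. The others were Apoc3 between Cerebrum and Hypothalamus, and Apoc3 and Apod between ovary and Womb. Between liver and duodenum, 5 members averaged 1 FPKM or more in both tissues, and 4 of them were called higher in liver, against 11% of all genes called in that direction and 35.1% called higher in duodenum. Apoa5, Apom, Apoh and Apoc1 passed only through liver, and Apod, under 1 FPKM in both, was not tested. The differences were between 5.98 and 11.5 for Apoa2, Apoc1, Apoh, Apoa5, Apom and Apoe. Apoc3 was 2.43 ± 0.31 (SE) higher and Apob 1.02 ± 0.27 higher (adjusted p = 0.00351), and the call of Apob was lost without duodenum estrus replicate 1 (0.74). Between liver and kidney, the 7 members at 1 FPKM or more in both tissues were called higher in liver (8.28% of all genes, with 35.8% higher in kidney), Apoa5 and Apoh passed only through liver, and Apod was not tested. Their differences ranged from 1.93 ± 0.10 for Apom to 11.54 ± 0.25 for Apoa1.

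Between duodenum and stomach, Apoc3 (8.52 ± 0.32 SE), Apob (5.66 ± 0.33) and Apoa1 (2.26 ± 0.35) were called higher in duodenum, against 12.1% of all genes, and Apoc1 (2.93 ± 0.98, adjusted p = 0.0263) higher in stomach, against 12%. The 6 stomach libraries held 1.15, 49.7 and 200.4 FPKM of Apoc1 in estrus against 0.580, 10.7 and 24.7 in diestrus, so that single libraries decided its level. The call was lost when duodenum estrus replicate 2 or 3, stomach estrus replicate 1 or stomach diestrus replicate 1 was left out (adjusted p = 0.0502 to 0.0594). Apoe was high in the same 3 stomach libraries, with 158, 219 and 132 FPKM where Apoc1 was at 49.7, 200.4 and 24.7, and 68.7 to 73.3 in the other 3. The macrophage and brown adipocyte marker sums of the stomach libraries ranged from 68.9 to 86.4 and from 59.3 to 93.9 FPKM. In the 3 libraries with the most Apoc1 and Apoe the enterocyte markers summed to 226, 229 and 210 FPKM, against 142 to 157 in the others, and the white adipocyte markers to 26.6, 11.1 and 13.2 against 6.40 to 8.84. The list of astrocyte markers, led in stomach by Gja1 and Aldh1l1, summed to 143, 186 and 75.1 FPKM in the same 3 libraries and to 56.8 to 63.2 in the others. The part of these lists was not tested. In duodenum Apob and Apoa1 were lowest in estrus replicate 1 and highest in estrus replicate 2, as was the sum of 11 enterocyte markers led by Rbp2 and Fabp2, at 6366 and 22143 FPKM. The part of enterocyte content in those values was not tested.

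Between Aorta and Vein, Apod alone of 6 members was called, 2.65 ± 0.29 (SE) higher in Vein, where 9.12% of all genes were called. The 6 Schwann cell markers summed to 357 to 768 FPKM in Vein and 104 to 412 in Aorta, and the 8 fibroblast markers to 812 to 2450 and 831 to 1544. Apod was highest in the Vein library and in the Aorta library with the most Schwann cell marker RNA, diestrus replicate 2 and diestrus replicate 3. Vein diestrus replicate 2 also had the most fibroblast marker RNA. In Aorta the fibroblast markers were highest in estrus replicate 1, where Apod was lowest. Apoc1 was 1.19 ± 0.49 higher in Aorta (adjusted p = 0.0964) and was called without Aorta estrus replicate 1 (1.68, adjusted p = 9.62e-05). That library had 718 FPKM of summed brown adipocyte markers, led in Aorta by Cox8b and Ucp1, against 5726 to 9352 in the other 5, and 81.8 FPKM of summed macrophage markers against 164 to 284. The part of nerve and fat in these vessel samples was not tested.

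Between brown and white adipose tissue, Apoc1 alone of 6 members was called, 2.96 ± 0.26 (SE) higher in brown, against 7.07% of all genes. Apoc3 and Apoe had log2 differences of -0.95 ± 0.50 and -0.41 ± 0.21, brown minus white, and neither was called. Between heart and Muscle, 3 members averaged 1 FPKM or more in both tissues, Apoe, Apoc1 and Apod, and were called, while Apoa2, Apoa1, Apoc3 and Apoh passed only through heart. Apoa2 (4.08 ± 0.25), Apoa1 (3.41 ± 0.18), Apoc3 (2.34 ± 0.12), Apoe (2.19 ± 0.14), Apoc1 (1.56 ± 0.23) and Apoh (1.41 ± 0.11) were higher in heart, against 22.7% of all genes, and 5 of these 6, all but Apoe, lay at the common share of liver given above. Apod was 1.76 ± 0.19 higher in Muscle (5.56% of all genes).

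**Figure D4:**
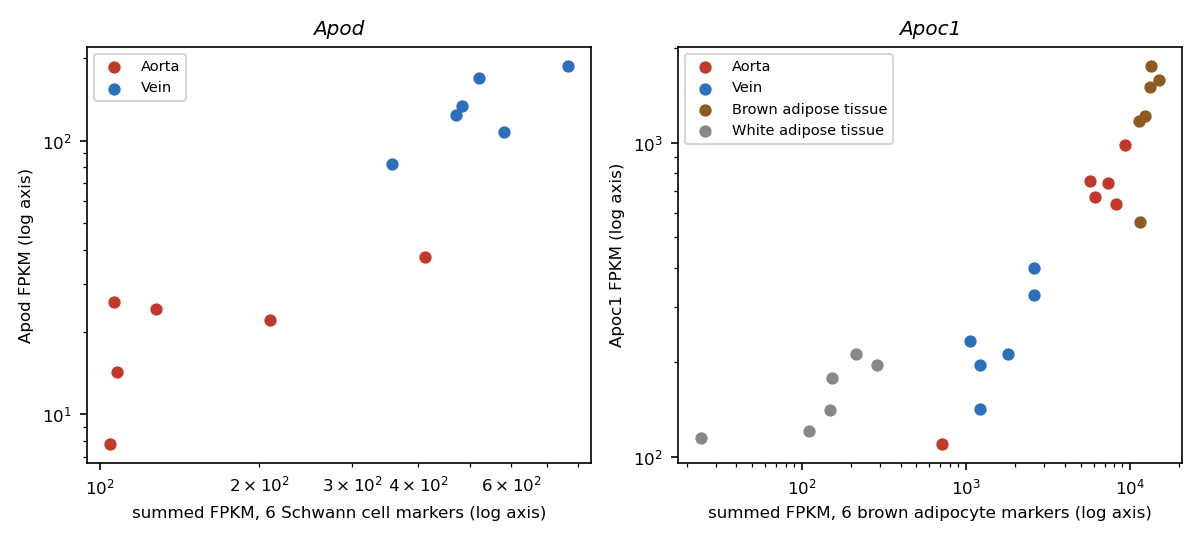
Left, Apod FPKM against the summed FPKM of 6 Schwann cell markers in the libraries of Aorta and Vein. Right, Apoc1 FPKM against the summed FPKM of 6 brown adipocyte markers in Aorta, Vein, brown and white adipose tissue, all on log axes, where the Aorta library with the fewest markers (718) also has the least Apoc1 (109).

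Between Cerebrum and Hypothalamus, Apoc1 (2.58 ± 0.18 SE), Apoa2 (1.35 ± 0.26) and Apoc3 (1.11 ± 0.21) were called higher in Hypothalamus, where 4.73% of all genes were called. Apoa1 (0.82 ± 0.24), Apoe (0.60 ± 0.07) and Apod (0.52 ± 0.15) were also higher there by the test, with a difference below the limit of 1, and Apoa1 was called with a pseudocount of 0.1 (-1.17, Cerebrum minus Hypothalamus). Apoc1 was at 10.1 to 17.8 FPKM in Hypothalamus and at 0.480 to 2.47 in Cerebrum. The astrocyte markers summed to 893 to 1011 FPKM in Hypothalamus and 765 to 983 in Cerebrum, and the oligodendrocyte markers to 2051 to 3284 and 1281 to 2623. The median hepatocyte marker was at 0.0182% of its liver mean in Hypothalamus and 0.00409% in Cerebrum. It was highest, at 0.0496%, in the Hypothalamus library with the most Apoa2 (10.2 FPKM, diestrus replicate 2) and lowest in the one with the least (3.03 FPKM, diestrus replicate 1), and its part was not tested. Between ovary and Womb, Apoa1 (4.36 ± 0.53) and Apoc3 (2.80 ± 0.19) were higher in ovary (10.4% of all genes) and Apod (1.43 ± 0.21) was higher in Womb (8.66%). Leaving out ovary diestrus replicate 3 gave 4.33 for Apoa1 and 2.71 for Apoc3, and -1.48 for Apod, ovary minus Womb. Apoc1 was called higher in ovary without Womb estrus replicate 3 (1.24). In Womb, Apoc1 was at 21.3 FPKM in estrus replicate 3 and at 0.740 to 5.30 in the other 5 libraries, and the white adipocyte markers were highest in the same library, at 97.6 FPKM against 7.99 to 50.0.

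Genes that act with these members were counted in 5 lists, 67 genes in all. Between liver and duodenum, 6 of 10 other apolipoproteins tested were higher in liver and 3 in duodenum, beside the 11% and 35.1% of all genes given above, while 7 of 9 lipases and lipase regulators were higher in liver and none in duodenum. Of 14 genes of particle assembly and cholesterol export, 3 were higher in liver and 5 in duodenum. The receptor list gave 3 in each direction of 12 tested, and the list of transcription factors and mRNA editing 10 and 3 of 18. Between liver and kidney the assembly list gave 8 of 13 higher in liver and none in kidney (8.28% and 35.8% of all genes). Between duodenum and stomach it gave 9 of 13 higher in duodenum and none in stomach (12.1% and 12% of all genes). As with the members, the filter favoured a difference for a list gene that passed only through 1 tissue.

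Among the list genes with the highest liver level were Apoc4 (1477 ± 103 FPKM, SD, n = 6) and Clu, the secreted chaperone clusterin (975 ± 98.9), among the other apolipoproteins. In the assembly list they were P4hb, a subunit of the microsomal triglyceride transfer complex (466 ± 26.7), and Lcat, which esterifies the cholesterol of HDL (416 ± 7.42). Among lipases and regulators, hepatic lipase, Lipc, was at 114 ± 10.55 FPKM. Among receptors Lsr (114 ± 13.6) and Scarb1, the HDL receptor (71.4 ± 9.32), and among transcription factors Cebpa (211 ± 43.1) and Hnf4a (179 ± 26.6) led. Named after their values were seen, Mttp, the partner of P4hb, was at 738 ± 256 FPKM in duodenum and 73.6 ± 5.74 in liver, Apoa4 at 3316 ± 2009 and 136 ± 42.0, and Apoc2 at 1097 ± 530.0 and 212 ± 22.5. These 3 were called higher in duodenum, by 3.22 ± 0.24, 4.39 ± 0.40 and 2.23 ± 0.28 (SE) on the log2 scale, with adjusted p of at most 9.34e-06.

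Estrus was compared with diestrus within each tissue, 3 libraries against 3. A member was tested where its mean was at least 1 FPKM over the 6 libraries, which gave 86 of 150 combinations of member and tissue. limma called 0 of the 86, and it called 0% of all genes tested in 13 tissues, 0.00936% in Muscle and 0.00798% in Spleen. The lowest adjusted p among the members was 0.362, for Apoc1 in brown adipose tissue. At an unadjusted p under 0.05 there were 6 of the 86 (6.98%), and 7.84% of all gene and tissue combinations. A single fit of all 90 libraries called Apoe in Aorta, beside 0.585% of all genes, and Apoc3 and Apod in brown adipose tissue, beside 6.26%. An exact permutation test of 3 against 3 cannot give a p below 0.1.

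**Figure D5:**
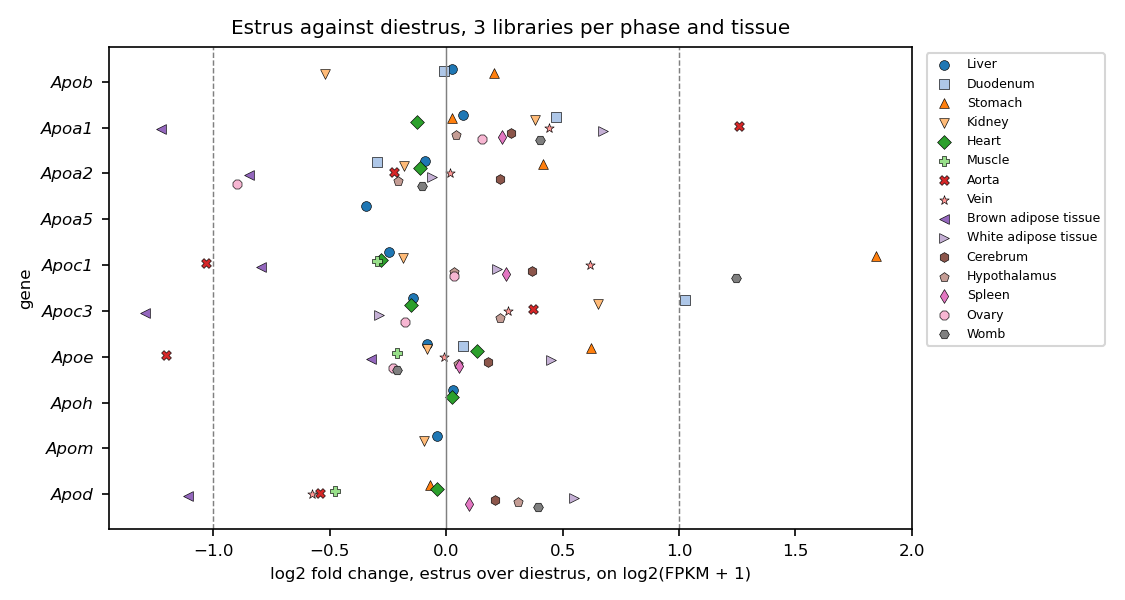
log2 fold change of estrus over diestrus on the log2(FPKM + 1) scale for each member (rows) in each tissue where it was tested (symbols), with dashed lines at a change of 1 in either direction. None of the 86 values was called, and the 9 beyond a dashed line lie in Aorta, brown adipose tissue, duodenum, stomach and Womb.

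The values of the phases did not overlap in 5 of the 86 combinations (5.81%), against 15% of all genes over the 15 tissues. They were Apoc1 and Apoc3 in brown adipose tissue, Apoc3 in kidney, Apoc1 in Spleen and Apoa1 in Vein. In brown adipose tissue the estrus libraries held 560.0, 1216 and 1172 FPKM of Apoc1 and the diestrus libraries 1583, 1508 and 1758 (log2 fold change -0.80 ± 0.31 SE, adjusted p = 0.362). All estrus values were lower, 30.1% of all genes in this tissue did not overlap, and the fold change was -0.43 without estrus replicate 1. The brown adipocyte markers were also lower in every estrus library (11341 to 12340 FPKM against 13245 to 15043), and their part was not tested. Estrus replicate 3 of this tissue listed 12048 genes at 0, against 2404 to 4820 in the other 89 libraries. That library listed Apoc3, Apoa2, Apoa1 and Apod at 0, while estrus replicates 1 and 2 held 7.17 and 7.01 FPKM of Apoc3. Without estrus replicate 3 the log2 fold change of Apoc3 went from -1.29 to -0.29 and that of Apod from -1.11 to -0.41. That of Apoa1 went from -1.22 to -1.12. Apoa1 was at 5.73 FPKM in diestrus replicate 3 and at most 1.62 in the other libraries of this tissue. Its mean reached 1 FPKM only through diestrus replicate 3, so the small shift does not show a stable change.

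Kidney held 23.8, 16.4 and 22.7 FPKM of Apoc3 in estrus against 8.68, 14.8 and 16.2 in diestrus (0.65 ± 0.23 SE, adjusted p = 1.00). All estrus values were higher, in a tissue where 7.98% of all genes did not overlap, and the change was 0.40 without diestrus replicate 1. In duodenum Apoc3 was at 447, 1472 and 964 FPKM in estrus against 567, 272 and 488 in diestrus (1.02 ± 0.50, 95% interval -0.17 to 2.21, adjusted p = 0.388), the phases overlapped, and the change was 0.64 without estrus replicate 2. Apoc1 in Spleen was at 7.82, 8.21 and 6.32 FPKM in estrus against 6.21, 5.87 and 6.04 in diestrus (0.26 ± 0.10, adjusted p = 0.930). Spleen had 8.78% of its genes without overlap.

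In the vessels, Apoa1 was at 3.36, 3.36 and 3.39 FPKM in Vein in estrus against 3.03, 1.61 and 2.17 in diestrus (0.44 ± 0.18 SE, adjusted p = 0.412), beside 18.2% of genes without overlap, and the change was 0.29 without diestrus replicate 2. Apod in Vein had a log2 fold change of -0.57 ± 0.22 (adjusted p = 0.412), with overlapping phases. Aorta estrus replicate 1 held 232 FPKM of Apoe against 947 to 2057 in the other 5 libraries, and 109 of Apoc1 against 638 to 985. The log2 fold changes there, -1.204 ± 0.70 for Apoe and -1.03 ± 0.77 for Apoc1 (adjusted p = 0.933 for both), were -0.47 and -0.14 without this library, the one with the low adipocyte markers.

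In liver, where the members were most abundant, the changes were small. Apoa5 held 562, 721 and 514 FPKM in the estrus libraries and 817, 717 and 729 in the diestrus libraries (log2 fold change -0.34 ± 0.14 SE, 95% interval -0.67 to -0.02, adjusted p = 0.811), and the phases overlapped. The median over the 9 members tested in liver was -0.08. Apoh, Apom and Apob, measured in few tissues, stayed within -0.52 and 0.21. Apoa1 was higher in estrus in 12 of the 14 tissues in which it was tested, with values from -1.22 in brown adipose tissue to 1.26 in Aorta, which fell to 0.54 without Aorta estrus replicate 2. Apoa2 was higher in estrus in 3 of 13. By the study's account the tissues came from the same mice, so neither count is of independent repeats. Leaving out 1 library turned the sign of Apoa1 in heart, Hypothalamus, kidney, liver, ovary, Spleen and stomach. In ovary Apoa2 reached the mean of 1 FPKM only through diestrus replicate 3 (0.850 FPKM without it). Apoa1 did so in brown adipose tissue only through diestrus replicate 3, and in Womb only through estrus replicate 3. The changes of -0.90 for Apoa2 in ovary, and of -1.22 and 0.40 for Apoa1 in these tissues, are no support for the counts. None of these changes was called, and the sign of an uncalled change can turn with the processing. Over all members 44 of 86 changes were higher in estrus, and over all genes 46.5%.

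The test of whether a phase change differed among tissues, an F test of the tissue by phase interaction in all 90 libraries, called none of the 10 members at an adjusted p of 0.05, against 3.88% of all genes. The lowest adjusted p were 0.281 for Apoe and 0.294 for Apom, and none of the 10 had an unadjusted p under 0.05. Of the 67 list genes, 0 of 644 combinations of gene and tissue were called between the phases by limma within tissues, and 83 (12.9%) had an unadjusted p under 0.05, beside 7.84% of all genes. The single fit of all libraries called 14 of these combinations, 6 in duodenum, 4 in Womb, 2 in ovary, 1 in Vein and 1 in brown adipose tissue. The share of all genes called by that fit is given here only for Aorta and brown adipose tissue. The 14 are therefore not read as a result about the lists.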

How the data were processed

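Reads were filtered by the authors with SOAPnuke and aligned to GRCm38.p5 with Bowtie2 (2.2.5), and RSEM (1.2.8) gave 1 FPKM value per gene and library, per the labels and the study's methods. The deposited FPKM table was used as it stands, with 20265 of 20414 genes named. Because the deposited unit was FPKM and not counts, log2(FPKM + 1) was tested with limma (3.58.1, R 4.3.3, trended variance, Benjamini-Hochberg) over all genes that averaged 1 FPKM or more. A fold change on this scale understates the change of low genes. Exact permutation tests, motif searches and summaries used scipy (1.17.1), pandas (2.3.3) and numpy (2.4.6) in Python (3.11.15), and figures used matplotlib (3.10.9). Low values of short genes did not resolve into whole reads (46.3% to 71.9% within 0.2 of a whole number), so the depth of single libraries could not be read from the files, the study giving only an approximate depth common to all samples, and genes at 0 stand in for it. Groups came from the sample labels. By the study's methods the tissues of a phase came from the same 3 mice, 6 in all, but the labels do not say which libraries share a mouse. Tests between tissues, the single fit and the interaction test therefore treat libraries of the same mice as independent, and their p-values measure the spread between these libraries. The members, lists, tissue pairs and markers were chosen with earlier results of these data known. The text names the 10 members, in each list the 2 genes highest in liver (1 of which is not reported here), the 3 genes most like each member, and the leading markers. Alternatives were another pseudocount (0.1), no filter, rescaling each library to a common FPKM sum (TPM), a single fit of all libraries, a replicate block, and leaving out each library. The model was tested on simulated data.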

Additional observations from a re-analysis of the deposited data

Results flagged for a closer look

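Within each tissue, the 6 libraries of a member with a mean of at least 1 FPKM were searched for a library far from the others on the log2(FPKM + 1) scale, by the gap to its nearest neighbour over the whole range, against Dixon's limit for 6 values. This marked 10 of 86 sets of libraries, where chance marks about 1 in 20, and the sets share libraries. Brown adipose tissue estrus replicate 3, the library with 12048 genes at 0, listed 0 FPKM of Apoc3 (7.01 to 10.7 in the other 5), 0 of Apoa2 (2.77 to 4.15) and 0 of Apod (3.16 to 6.27), while estrus replicate 1 held 560.0 FPKM of Apoc1 (1172 to 1758). Aorta estrus replicate 1 held 109 FPKM of Apoc1 (638 to 985) and 232 of Apoe (947 to 2057). Kidney estrus replicate 3 held 5.18 FPKM of Apob (14.1 to 20.2) and 254 of Apoe (320.1 to 366). Liver estrus replicate 3 held 10827 FPKM of Apoa2 (13247 to 14258 in the other 5). Ovary diestrus replicate 3 held 15.7 FPKM of Apoa2 (0.240 to 1.37), beside albumin at 50.3 FPKM.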

How the results depend on the processing

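No called difference between tissues changed its direction under the alternatives run, while 40 of 106 uncalled member values, phase changes and tissue differences together, turned sign under at least 1, as did Apoa2 in ovary against Womb (0.16, and -0.38 without ovary diestrus replicate 3). A single fit of all libraries, which shares the spread among tissues, called 1 member between the phases in Aorta (Apoe, adjusted p = 0.0287), 2 in brown adipose tissue (Apoc3 and Apod, 0.0307 and 0.0335, both listed at 0 in the library with the most genes at 0) and 14 gene and tissue combinations of the pathway lists, where the tissue-wise fits called 0. It called 0.585% of all genes in Aorta and 6.26% in brown adipose tissue. Of the 14 combinations, 1 lay in brown adipose tissue and 0 in Aorta, so these shares are no background for that count. With each library left out in turn, no member was called between the phases, and the list genes called ranged from 0 to 4 (4 without Muscle estrus replicate 1, 1 without ovary estrus replicate 3). Between duodenum and stomach the members called ranged from 3 to 7 on leaving out 1 library (7 without stomach estrus replicate 3) and were 7 with TPM, as Apoe, Apoa2 and Apod passed the fold limit. Between Aorta and Vein they ranged from 1 to 2 (2 without Aorta estrus replicate 1), between liver and duodenum from 7 to 8, and between ovary and Womb from 3 to 4. With medians in place of means, 0 of 140 neighbours differed. The lowest raw p was then 0.013, even for tissues whose ranges did not overlap. Hardly any neighbour could pass the adjustment at that p, so this 0 does not bear on the order. TPM shifted the median of all genes by -0.27 in brown against white adipose tissue, the largest of the 8 pairs, and it took the call of Apob between liver and duodenum (0.96) and gave one to Apoe between ovary and Womb (1.05). Libraries were taken to deviate together where every r between same-numbered libraries was above 0.1. The 2 phases met this rule in 0 of 15 tissues, and of the tissue pairs only liver and kidney did (r 0.111 to 0.276). Ovary and Womb ranged from 0.0664 to 0.292 and Aorta and Vein from -0.0056 to 0.451, so shared deviation in other pairs is not excluded. With the replicate block 0 members were called between the phases and 9 between liver and kidney, as without it. Depth limits all members under 1 FPKM.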
